A study of Mus musculus with 12 samples.

Results

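The 63 genes described here encode the proteins of the cytosolic ribosome, and they were taken from 15125 loci measured in CD4 T cells of the mouse spleen. They are all loci whose name in the files follows the Rpl, Rps or Rplp pattern of cytosolic ribosomal proteins, or is Rpsa, with the locus of highest mean level kept for each name. Of 79 standard ribosomal protein genes, 59 are members, 35 of the large 60S subunit and 24 of the small 40S subunit. The other 4 members, Rpl22l1, Rpl7l1, Rps27l and Rpl39l, are paralogs of standard genes. In a comparison with the annotation, 54 of the 63 members matched the gene they are named for by the distance from first to last exon. The rest, among them Rpl7l1, Rpl5 and Rpsa, matched only by an exon length of at least 40 bp, which is a weaker check.

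RNA was measured in 12 libraries in 4 groups of 3, namely KIKO activated, KI activated, KIKO naive and KI naive cells. The labels give the genotypes only as KI and KIKO, name no altered gene and give neither age nor sex nor strain of the animals, and the series concerns faulty proteasomes in T cells. Activated cells of both genotypes had 16 h with beads that carry antibodies to CD3 and CD28, which stimulate T cells through their antigen receptor complex and CD28. The titles of the KIKO activated libraries say T cells and leave out CD4. Of 7 CD4 T cell markers, 6 were listed in every group, and Lck was listed in none.

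The ribosome translates every mRNA of the cell, and its large subunit forms the peptide bonds while its small subunit reads the codons. Each ribosome carries a single copy of nearly all of these proteins, while the stalk proteins Rplp1 and Rplp2, which recruit elongation factors, are carried in pairs. The mRNAs of ribosomal proteins are known for starting with a run of C and T, a terminal oligopyrimidine tract through which the kinase mTOR governs their translation, and resting T cells that are stimulated make many new ribosomes. Ribosomal proteins that find no partner are ubiquitinated and degraded by the proteasome.

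All levels are in FPKM, a unit that corrects fragment numbers for transcript length and library size, so levels of different genes can be set side by side. FPKM do not carry the read depth, which is unknown here, and counting error was therefore not estimated. No label says that replicates are separate animals, so the p-values below measure the spread between these samples, which may be technical. The samples are bulk RNA, in which fewer cells of a type and less RNA per cell cannot be told apart. Ribosomal protein genes have many processed pseudogenes, and the counting may have split reads between a member and such copies. Libraries listed 9771 to 11102 loci, and KIKO naive 2 listed 85319 events, while the other libraries listed 100188 to 112679. The summed FPKM of 6 myeloid markers ran from 0.039 to 163 in KIKO activated, 0 to 0.949 in KI activated, 0.958 to 202 in KIKO naive and 0 to 0.307 in KI naive libraries, with both high values in the libraries numbered 2. The myeloid marker Itgam was at 0 in all 12. As a check that libraries separate by genotype label, a 307-bp exon was read at a locus named Mir686. It has the length of an exon of the proteasome gene Psmb5, and only the length was matched. That exon was listed at 4.90, 29.1 and 0 FPKM in KIKO activated, against 115, 125 and 141 FPKM in KI activated libraries. It was listed at 0 in all 3 KIKO naive libraries, against 42.8, 42.9 and 43.9 FPKM in KI naive libraries.

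The sequences around the transcript starts of members that recur below are shown first, since the run of C and T at the start is the feature that ribosomal protein mRNAs share. Each line gives 20 bases before and 20 bases after the annotated start (RefSeq, GRCm38.p6), on the strand of the gene. Capitals mark a C that lies within 10 bases of the start and is followed by at least 4 bases that are C or T. Where several such runs begin there, only the longest is marked. A run that begins further upstream counts only from a C inside that window. They come from chr9:44407694-44407733 (plus strand) for Rps25, chr7:28350669-28350708 (plus) for Rps16, chr1:39367831-39367870 (plus) for Rpl31, chr3:90213629-90213668 (minus) for Rps27, chr17:24720043-24720082 (plus) for Rps2, chr3:28805488-28805527 (plus) for Rpl22l1, chr17:46782637-46782676 (minus) for Rpl7l1 and chr9:66946066-66946105 (plus) for Rps27l.
Rps25: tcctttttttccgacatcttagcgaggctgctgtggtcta
Rps16: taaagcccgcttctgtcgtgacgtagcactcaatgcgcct
Rpl31: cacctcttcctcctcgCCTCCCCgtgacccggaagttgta
Rps27: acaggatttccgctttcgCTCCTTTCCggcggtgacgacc
Rps2: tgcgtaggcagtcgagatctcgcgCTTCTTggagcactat
Rpl22l1: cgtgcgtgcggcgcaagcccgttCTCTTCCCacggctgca
Rpl7l1: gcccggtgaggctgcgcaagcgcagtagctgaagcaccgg
Rps27l: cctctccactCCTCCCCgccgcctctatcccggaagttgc

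Such a run was found at 28 of the 50 members with an annotated start sequence (56.0%), against 5451 of 17492 protein-coding genes (31.2%). Rps25, Rps16 and Rpl7l1 are among the members without a run that begins in that window. The Rps25 and Rps16 lines above do hold such a run, but it begins further upstream. Within the 300 bases around the start (250 before, 50 after), CCGGAAG on either strand, a core of Ets factor sites, was present at 21 of the 50 members (42.0%) against 11.9% of all genes. CACGTG, the E-box that Myc binds, was present at 3 members (6.0%) against 7.9% of all genes. The reverse strand of CCGGAAG holds CTTCC and can therefore overlap a run of C and T. These are matches of letters, with no measured binding.

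In every group the 63 genes held a large share of the measured RNA, and the share was smaller in KIKO than in KI cells. They made up 18.6%, 17.6% and 18.3% of the summed FPKM of all loci in KIKO activated libraries, against 20.4%, 20.2% and 21.0% in KI activated libraries. In naive cells the shares were 18.9%, 20.2% and 18.0% in KIKO, against 21.4%, 21.1% and 23.1% in KI libraries. The groups of the 2 genotypes did not overlap in either state. Within the total, the 60S proteins held 10.2% to 10.6% in KIKO activated against 11.9% to 12.6% in KI activated libraries. The 40S proteins held 7.37% to 7.98% in KIKO activated against 8.22% to 8.37% in KI activated libraries. No test was made on these sums.

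**Figure D1:**
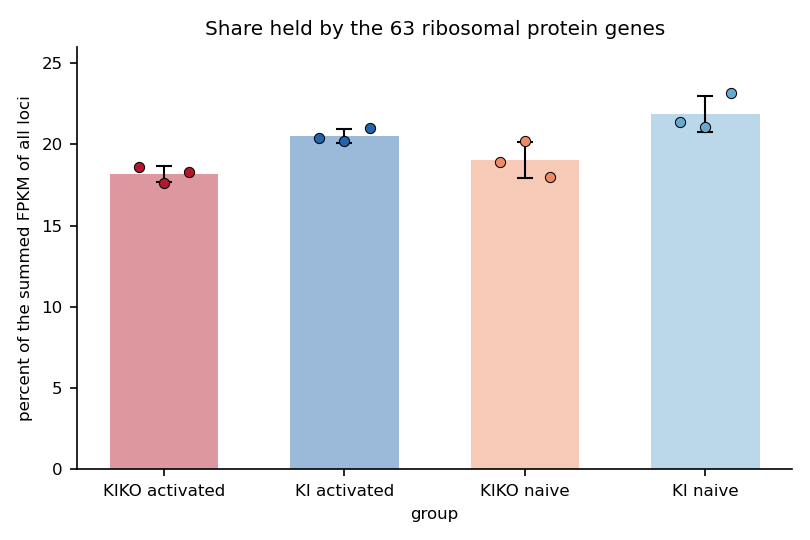
Percent of the summed FPKM of all loci that the 63 ribosomal protein genes held, by group; points are libraries, bars the mean of 3 and error bars the SD. Both KIKO groups lie below the KI group of the same state, with a mean of 18.2% in KIKO activated against 20.5% in KI activated cells.

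Levels differed widely between members. Rplp1, a stalk protein, had the highest mean level over the 12 libraries, at 5495 FPKM, followed by the 60S protein Rpl26 at 3053 FPKM and the stalk base Rplp0 at 2966 FPKM. Rps15a, a 40S protein, had the lowest mean of the standard members, at 100.1 FPKM. The paralogs stood below all of these, with Rpl22l1 at 40.6, Rpl7l1 at 34.6 and Rps27l at 32.4 FPKM. Rpl39l, which replaces Rpl39 in male germ cells, stood at 0.182, 0 and 0.0842 FPKM in KIKO activated, against 0.258, 0.209 and 0.344 FPKM in KI activated libraries, and was listed in no naive library. It did not pass the filter of 1 FPKM in 3 libraries, so 62 members were tested. At 9 members (Rpl21, Rpl29, Rpl30, Rpl35a, Rpl37a, Rpl7a, Rps27a, Rps27l and Rps3) replicates of a group lay over 2-fold apart. Rps3, a 40S protein at the mRNA entry channel, stood at 1725, 685 and 749 FPKM in KIKO activated and at 1715, 2074 and 685 FPKM in KIKO naive libraries, against 753 to 904 FPKM in KI activated and 889 to 1124 FPKM in KI naive libraries. In the 3 high libraries nearly all of the level lay at a transcript end of 1575 bp that was listed at 0 in the other 9.

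**Figure D2:**
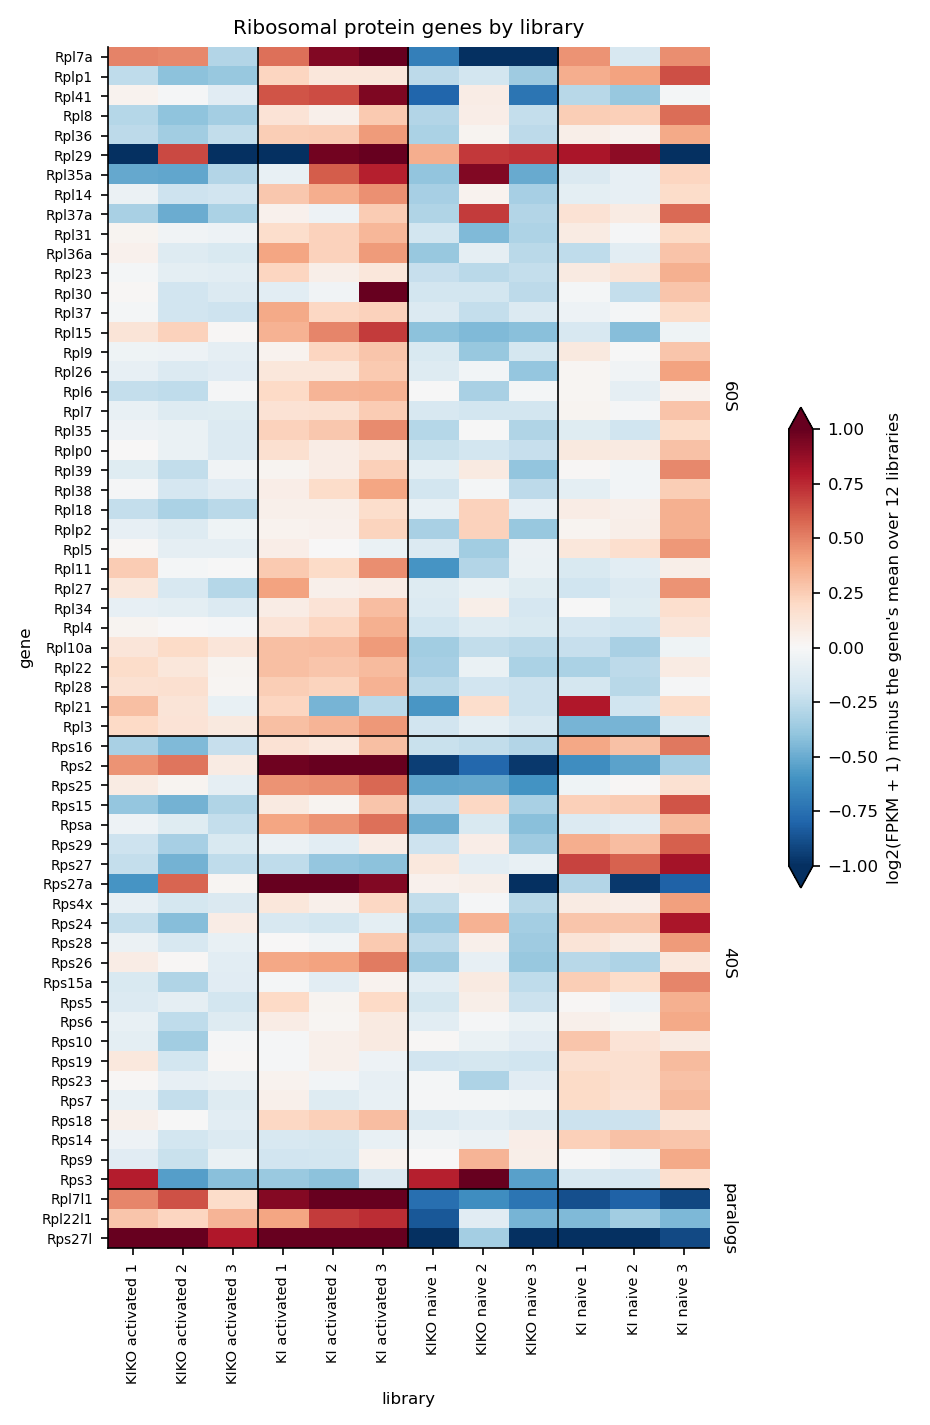
Level of 61 of the 62 ribosomal protein genes tested (rows) in each of 12 libraries (columns), as log2(FPKM + 1) minus the mean of that gene over all libraries; colours end at a difference of 1 either way. Within each block of 60S, 40S and paralog genes, rows run by the mean of both genotype differences. Most rows are bluer in KIKO than in KI columns of the same state, the paralogs are red in the activated columns, and Rpl29, Rps27a and Rps3 switch between replicates.

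In naive cells the question is how KIKO differ from KI cells before stimulation. Of the 62 members tested, 15 were lower and 0 were higher in KIKO naive cells, called by limma at a Benjamini-Hochberg adjusted p under 0.05 over 9743 loci. Over all loci 3.9% were called lower and 6.46% higher. At an unadjusted p under 0.05, limma found 27 members lower and 0 higher. The share of all loci at that unadjusted threshold was not counted, so these 27 have no background here. The median difference of the members was -0.24 on the log2(FPKM + 1) scale, against 0.05 over all loci, and 54 of 62 lay below 0. The 3 libraries of each group did not overlap at 28 lower members and 1 higher member, where 13.5% of all loci were lower and 19.6% higher without overlap. By subunit, 7 of 35 60S and 8 of 24 40S proteins were lower, with medians of -0.22 and -0.37. Quantile normalization, which gives all libraries the same set of values, left 6 members lower and 2 higher, while the 3 other scalings tried left 13 to 22 lower and at most 1 higher. Under quantile normalization the median member lay at -0.04, against -0.01 over all loci. Since that scaling gives equal ranks equal values, it can shrink differences of the highest members, such as Rplp1, which was not tested. Calls were also lost there at members of lower level, such as Rpl23 (-0.17) and Rps19 (-0.16).

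Rps25, a 40S protein that several viral internal ribosome entry sites need (chr9:44318436-44319678, GRCm39), stood at 263, 265 and 249 FPKM in KIKO naive libraries, against 367, 382 and 420.0 FPKM in KI naive libraries. The groups were well apart, and the log2 difference was -0.59 ± 0.09 (SE, limma adjusted p = 0.0019, n = 3 each). Rps16, a 40S protein whose tail reaches the tRNA in the P site (chr7:28050077-28052580), stood at 456, 451 and 435 FPKM in KIKO naive, against 699.9, 653 and 770.0 FPKM in KI naive libraries. Its difference was -0.66 ± 0.10 (limma adjusted p = 0.0018), and again no library of one genotype reached the other. Rps27, a zinc-binding 40S protein (chr3:90119829-90120940), stood at 777, 668 and 684 FPKM in KIKO naive, against 1152, 1086 and 1283 FPKM in KI naive libraries. It was lower by -0.72 ± 0.11 (limma adjusted p = 0.0018), with all KIKO values below all KI values, but with transcript starts alone the difference was -0.34 and not called. Rps29, another zinc-binding 40S protein, stood at 721, 869 and 651 FPKM in KIKO naive, against 1067, 1029.8 and 1258 FPKM in KI naive libraries (log2 difference -0.59 ± 0.12, limma adjusted p = 0.012).

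Of the stalk proteins, Rplp1 and Rplp0 were lower as well. Rplp1 stood at 4463, 4707 and 4171 FPKM in KIKO naive, against 6875, 7066 and 8331 FPKM in KI naive libraries. It had the largest difference in FPKM of the members named here, and its log2 difference was -0.74 ± 0.12 (limma adjusted p = 0.0027), or -0.27 and not called under quantile normalization. Its anchor Rplp0 was lower by -0.37 ± 0.10 (limma adjusted p = 0.034), a call lost without any of the 6 naive libraries (-0.41 to -0.31) and without KIKO activated 1 or KI activated 2 (-0.37), and the partner Rplp2 did not pass (-0.31 ± 0.15, limma adjusted p = 0.23). Rpl7a, a 60S protein, had the largest fold change, at 210.0, 79.6 and 132 FPKM in KIKO naive against 462, 301 and 466 FPKM in KI naive libraries (-1.62 ± 0.33, limma adjusted p = 0.010). It is one of the 9 members whose replicates lay far apart, and without KIKO naive 2 and KI naive 3 together the difference was -1.16 and not called. The events listed for Rpl7a also switched between libraries. A transcript end of 154 bp stood at 465 FPKM in KI naive 3 and at 0 in the other naive libraries. A 447-bp intron was listed as retained at 100% in KIKO naive 3 alone, and a 225-bp intron at 100% in KIKO naive 2 alone. Of the 15 calls, 7 (Rpl23, Rpl7a, Rplp1, Rps16, Rps25, Rps27 and Rps29) held without each library in turn. With only the 2 naive groups in the fit 3 members were lower, and Rpl23, Rpl7a, Rplp1 and Rps29 were not among them, and without the filter on low values 7 were lower. The other 8 of the 15 calls, which include Rpl31, Rpl5, Rpl8, Rplp0 and Rps19, did not hold without each library in turn. The count of members lower was 7 without KI naive 1 and without KI naive 3, and 9 without KI naive 2 and without KIKO naive 3.

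Levels of CD4 T cell markers moved alongside. The summed FPKM of the 6 listed ran from 795 to 866 in KIKO naive against 1055 to 1278 in KI naive libraries. CD8 T cell markers summed to 12.6 to 16.1 in KIKO naive against 6.51 to 8.12 FPKM in KI naive libraries, NK cell markers to 9.60 to 21.1 against 8.15 to 14.8, and B cell markers to 0 to 2.78 against 0 to 2.66, with Ms4a1 and Pax5 at 0 in all. Red cell and platelet markers summed to at most 2.24 FPKM in KIKO naive libraries and were at 0 in KI naive libraries. Without both libraries numbered 2 of KIKO cells, which hold the myeloid transcripts, 17 members were lower and 0 higher, with a median of -0.29. The part of the other markers in these differences was not tested.

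After activation the same comparison found 22 members lower and 0 higher in KIKO cells, against 19.3% of all loci lower and 20.7% higher. At an unadjusted p under 0.05, limma found 29 members lower and 0 higher, with the share of all loci at that threshold not counted. The median member lay at -0.27 against 0.04 over all loci, and 57 of 62 lay below 0. The libraries of the 2 genotypes did not overlap at 46 members, all of them lower in KIKO, where 26% of all loci were lower without overlap. The calls covered 14 of 35 60S proteins, 7 of 24 40S proteins and the paralog Rpl7l1. Quantile normalization left 8 lower and 1 higher, and the 3 other scalings 16 to 30 lower and 0 higher. Relative to the median of all loci, the median member lay at -0.31 as deposited and at -0.01 under quantile normalization. Rescaling to an equal sum moved the median of all loci to 0.15.

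Rpl41, the smallest ribosomal protein and part of the bridge between the subunits, stood at 844, 814 and 758 FPKM in KIKO activated, against 1271, 1293 and 1569 FPKM in KI activated libraries (-0.77 ± 0.20, limma adjusted p = 0.0084). Rps2, a 40S protein at the mRNA entry (chr17:24939037-24940903), stood at 1106, 1173 and 856 FPKM in KIKO activated, against 1593, 1674 and 1740.2 FPKM in KI activated libraries. KIKO activated 3 was the lowest of the 6, the groups did not overlap, and the log2 difference was -0.69 ± 0.13 (limma adjusted p = 0.0011). Rpl7l1, thought to act in assembly of the 60S subunit (chr17:47084776-47093598), stood at 41.3, 45.8 and 33.3 FPKM in KIKO activated, against 56.0, 68.3 and 70.8 FPKM in KI activated libraries. Its difference was -0.69 ± 0.12 (limma adjusted p = 0.00084), again without overlap. Rps27a, a 40S protein made as a fusion with ubiquitin, stood at 376, 849 and 572 FPKM in KIKO activated, against 1135, 1235 and 1076 FPKM in KI activated libraries (-1.01 ± 0.33, limma adjusted p = 0.027). The 60S protein Rpl35a was lower by -0.88 ± 0.32 (limma adjusted p = 0.047), at 256, 255 and 299 FPKM in KIKO activated against 347, 556 and 628 FPKM in KI activated libraries. The replicates of Rps27a and Rpl35a lay far apart. In KIKO activated 1, the lowest of these for Rps27a, a 417-bp intron of that gene was listed as retained at 52.4%. The other activated libraries had 2.84% to 6.53%. The Rps27a call was lost without KIKO activated 1 (-0.72) or 3 (-1.02) and without KI activated 1 (-1.02), 2 (-0.96) or 3 (-1.06), and the Rpl35a call without any activated library but KI activated 1 (-0.95 to -0.71) and without any KI naive library (-0.88).

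Of the 22 calls, 12 held without each library in turn, among them Rps16 (-0.52 ± 0.10, limma adjusted p = 0.0011), Rps25 (-0.49 ± 0.09, limma adjusted p = 0.00079, but -0.14 and not called under quantile normalization), Rplp1 (-0.49 ± 0.12, limma adjusted p = 0.0049), the large subunit protein Rpl36 (-0.60 ± 0.13, limma adjusted p = 0.0028) and Rpsa, a 40S protein known also as the laminin receptor (-0.61 ± 0.14, limma adjusted p = 0.0041). The 10 lost were Rpl15, Rpl18, Rpl31, Rpl35, Rpl35a, Rpl36a, Rpl7, Rps15, Rps26 and Rps27a, and without KIKO activated 3 the count of members lower was 13, without KI activated 3 it was 12. Markers of CD4 T cells summed to 477 to 704 FPKM in KIKO activated, against 1009 to 1208 FPKM in KI activated libraries. Activation markers (Cd69, Il2ra, Myc, Tnfrsf4 and Il2) summed to 319 to 467 FPKM in KIKO activated, against 740 to 856 FPKM in KI activated libraries. CD8 T cell markers summed to 8.67 to 10.3 FPKM in KIKO activated against 11.1 to 12.9 FPKM in KI activated libraries, NK cell markers to 2.19 to 11.1 against 0.420 to 1.06, B cell markers to 0.298 to 2.51 against 0 to 0.152, and red cell and platelet markers to at most 3.36 against 0. Without both libraries that hold myeloid transcripts 20 members were lower and 0 higher, and the part of the other markers was not tested.

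In all, 5 members (Rpl31, Rpl8, Rplp1, Rps16 and Rps25) were called lower in KIKO cells in both states. The 2 states share no library, but 1 fit over all 12 libraries gave both calls with a common estimate of spread. The calls are therefore not independent. These 5 members are 8.06% of the 62 members tested, where 1.91% of all loci were called lower in both. For Rpl8, a 60S protein near the peptidyl transferase centre, the difference was -0.50 ± 0.13 in naive (limma adjusted p = 0.028) and -0.49 ± 0.13 in activated cells (limma adjusted p = 0.0085), and neither was called under quantile normalization (-0.22 and -0.19). For Rpl31, at the exit of the peptide tunnel, it was -0.40 ± 0.09 in naive (limma adjusted p = 0.019) and -0.27 ± 0.09 in activated cells (limma adjusted p = 0.036), and under quantile normalization the activated difference was 0.03. Both Rpl31 calls and the naive Rpl8 call are among those lost without a library. Both genes that form the 5S RNP with 5S RNA, which can bind Mdm2, can be set beside these. Rpl5 was lower in naive cells (-0.42 ± 0.11, limma adjusted p = 0.037, lost without any naive library but KIKO naive 3, and without KIKO activated 1 or KI activated 2), and Rpl11 passed in neither state.

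**Figure D3:**
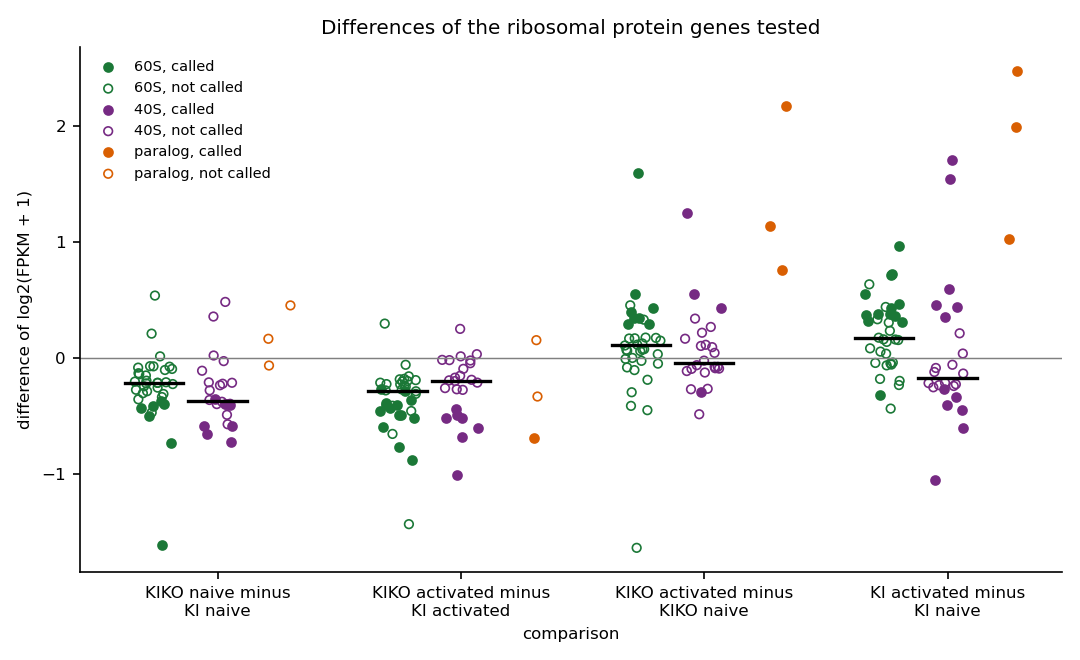
Differences of log2(FPKM + 1) for the 62 ribosomal protein genes tested in 4 comparisons; filled points passed limma at an adjusted p under 0.05, open points did not, and black bars are medians of the 60S and 40S genes. Points of both genotype comparisons lie mostly below 0, and in KI activation the 60S median is 0.17 and the 40S median -0.18.

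A further 16 standard ribosomal protein loci fell outside the naming rule. Rps3a1 and Fau are listed under their own names, and 14 others stand at loci that the files name after a snoRNA or another gene and that match by distance. In naive cells 5 of these 16 (31.2%) were lower and 0 higher in KIKO (median -0.34). Of all loci 3.9% were lower and 6.46% higher there (median 0.05). In activated cells 5 of the 16 (31.2%) were lower and 0 higher (median -0.25). Of all loci 19.3% were lower and 20.7% higher in that state (median 0.04). All 16 lay below 0 in both states. Rpl13, Rpl13a, Rpl24 and Rpl27a were not analysed here.

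Activation itself changed members in both directions. In KIKO cells 14 members were higher and 1 lower after activation, against 25.1% of all loci higher and 22.2% lower. The KIKO activated and naive libraries did not overlap at 20 higher and 5 lower members, where 29.3% of all loci were higher and 26.6% lower without overlap. In KI cells 21 members were higher and 7 lower, against 32.2% and 29.5% of all loci. The KI activated and naive libraries did not overlap at 23 higher and 10 lower members, where 35.6% of all loci were higher and 33.5% lower. The shares of members called higher, 22.6% in KIKO and 33.9% in KI cells, were thus near those of all loci. The split depends on scaling, since with each library rescaled to an equal sum 11 were higher and 7 lower in KIKO cells, and 15 higher and 19 lower in KI cells. Under quantile normalization 13 were higher and 8 lower in KIKO cells, and 16 higher and 17 lower in KI cells. By subunit, 8 of 35 60S proteins were higher and 0 lower in KIKO cells (median 0.11), and 12 were higher and 1 lower in KI cells (median 0.17). Of 24 40S proteins, 3 were higher and 1 lower in KIKO cells (median -0.04), and 6 higher and 6 lower in KI cells (median -0.18).

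The paralogs were higher in activated cells of both genotypes, all 3 that were tested. Rps27l, a paralog of Rps27 and known as a p53 target in human cells (chr9:66853368-66856794), stood at 65.2, 66.4 and 41.3 FPKM in KIKO activated, against 8.73, 18.2 and 10.0 FPKM in KIKO naive libraries (2.17 ± 0.30, limma adjusted p = 0.00012). In KI cells it stood at 53.3, 51.1 and 47.7 FPKM in activated, against 9.19, 5.04 and 12.0 FPKM in naive libraries (2.47 ± 0.30, limma adjusted p = 1.6e-05). Every activated library lay above every naive one, and neither genotype comparison passed for this gene (limma adjusted p = 0.36 in naive and 0.72 in activated cells). Rpl7l1 stood at 16.9, 18.6 and 17.2 FPKM in KIKO naive and at 15.4, 16.2 and 15.1 FPKM in KI naive libraries. Set against the activated values given above, it was 1.14 ± 0.12 higher after activation in KIKO (limma adjusted p = 2.4e-05) and 1.99 ± 0.12 higher in KI cells (limma adjusted p = 1.2e-07). Rpl22l1, the paralog of Rpl22 (chr3:28859585-28861564), stood at 46.5, 44.6 and 48.7 FPKM in KIKO activated, against 20.8, 35.3 and 27.4 FPKM in KIKO naive libraries (0.75 ± 0.16, limma adjusted p = 0.0018). It stood at 50.7, 62.7 and 64.7 FPKM in KI activated, against 28.0, 29.9 and 27.8 FPKM in KI naive libraries (1.02 ± 0.16, limma adjusted p = 0.00011). The standard gene Rpl22 was higher too, by 0.34 in KIKO (limma adjusted p = 0.031) and 0.46 in KI cells (limma adjusted p = 0.0048), with the KIKO call lost without KIKO activated 1 (0.31) or 2 (0.34) and without KIKO naive 1 (0.30) or 3 (0.31).

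Among standard members Rps2 had a large change in both genotypes. It stood at 423, 469.9 and 415 FPKM in KIKO naive and at 525, 557 and 643 FPKM in KI naive libraries, and was 1.25 ± 0.13 higher after activation in KIKO (limma adjusted p = 1.5e-05) and 1.54 ± 0.13 higher in KI cells (limma adjusted p = 9.0e-07). Rps25 was higher by 0.55 ± 0.09 in KIKO (limma adjusted p = 0.00031) and by 0.46 ± 0.09 in KI cells (limma adjusted p = 0.00062), where quantile normalization gave 0.12 and no call. In all, 11 members (17.7%) were called higher on activation in both genotypes, near the 19.9% of all loci. They include the 60S proteins Rpl10a, Rpl11, Rpl15, Rpl22, Rpl28 and Rpl3, of which Rpl11 lost its call without a library in both genotypes and Rpl3 in KIKO cells. With starts summed Rpl11 turned to -0.33 in KIKO cells, and under quantile normalization Rpl28 was at 0.09 in KI cells and not called. Rps27a was higher in KI cells, at 1135, 1235 and 1076 FPKM in KI activated against 462, 289 and 322 FPKM in KI naive libraries (1.71 ± 0.33, limma adjusted p = 0.00068). Its 417-bp intron was listed as retained at 4.47%, 4.13% and 5.98% in KI activated, against 6.56%, 100% and 100% in KI naive libraries. The form listed at Rps27a thus differed between libraries, and its part in the level was not tested. Rpl7a was higher in KIKO cells, at 476, 472 and 275 FPKM in KIKO activated against 210.0, 79.6 and 132 FPKM in KIKO naive libraries (1.59 ± 0.33, limma adjusted p = 0.0017). Its transcript end of 154 bp was listed at 476, 471 and 0 FPKM in KIKO activated and at 0 in every KIKO naive library. The events listed for Rpl7a thus differed too, and their part in its level was not tested.

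After activation Rps27 was lower in KIKO cells, at 613, 518 and 604 FPKM in KIKO activated against 777, 668 and 684 FPKM in KIKO naive libraries (-0.30 ± 0.11, limma adjusted p = 0.037). That call was lost without KIKO activated 2 (-0.22), KI activated 2 (-0.30), KIKO naive 1 (-0.23) or KIKO naive 3 (-0.32). In KI cells it stood at 603, 551 and 541 FPKM in activated, against 1152, 1086 and 1283 FPKM in naive libraries (-1.05 ± 0.11, limma adjusted p = 4.3e-06). Activated libraries lay below naive ones in both genotypes. The 7 members lower after activation in KI cells were Rplp1 and 6 40S proteins. Rps14, a 40S protein of the platform, stood at 1270.0, 1258 and 1353 FPKM in KI activated, against 1676, 1743 and 1726 FPKM in KI naive libraries (-0.41 ± 0.09, limma adjusted p = 0.0015). Rps29 stood at 799.9, 774 and 875 FPKM in KI activated libraries, below all KI naive values given above (-0.45 ± 0.12, limma adjusted p = 0.0068). The other 4 calls each depended on a library. Rps24 stood at 656, 645 and 683 FPKM in KI activated, against 888, 889.8 and 1288 FPKM in KI naive libraries. Rps15a stood at 97.5, 91.8 and 102 FPKM in KI activated, against 117, 112 and 139 FPKM in KI naive libraries. Rps7 stood at 1498, 1318 and 1371 FPKM in KI activated, against 1647, 1601 and 1796 FPKM in KI naive libraries. Activated and naive libraries did not overlap at any of these 3 genes, nor at Rplp1, which stood at 6186, 5764 and 5779 FPKM in KI activated libraries. Rps24 (-0.60, limma adjusted p = 0.021) was lost without KI activated 2 (-0.59) or KI naive 3 (-0.43), and Rps15a (-0.34, limma adjusted p = 0.019) without the same libraries (-0.30 and -0.24), and with starts summed Rps15a turned to 0.27. Rps7 (-0.27, limma adjusted p = 0.026) and Rplp1 (-0.32, limma adjusted p = 0.027) were lost without KI activated 2 (-0.23 and -0.31), KI activated 3 (-0.26 and -0.31) or KI naive 3 (-0.22 and -0.24).

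The test of whether the genotypes responded differently to activation called 2 of 62 members, with 8.99% of all loci called higher and 11.6% lower. Rps27 had a difference of responses of 0.76 ± 0.15 (limma adjusted p = 0.0051), since it fell by 0.30 in KIKO and by 1.05 in KI cells. After activation, KIKO minus KI was 0.03 ± 0.11 (limma adjusted p = 0.84). Rpl7l1 had a difference of responses of -0.85 ± 0.17 (limma adjusted p = 0.0057), from its rise of 1.14 in KIKO and 1.99 in KI cells. Both held without each library in turn, and the Rps27 call was lost when transcript starts alone were summed (0.64). At an unadjusted p under 0.05, limma found 6 members higher and 4 lower, with the share of all loci at that threshold not counted. The median of the members was -0.05, against -0.01 over all loci.

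**Figure D4:**
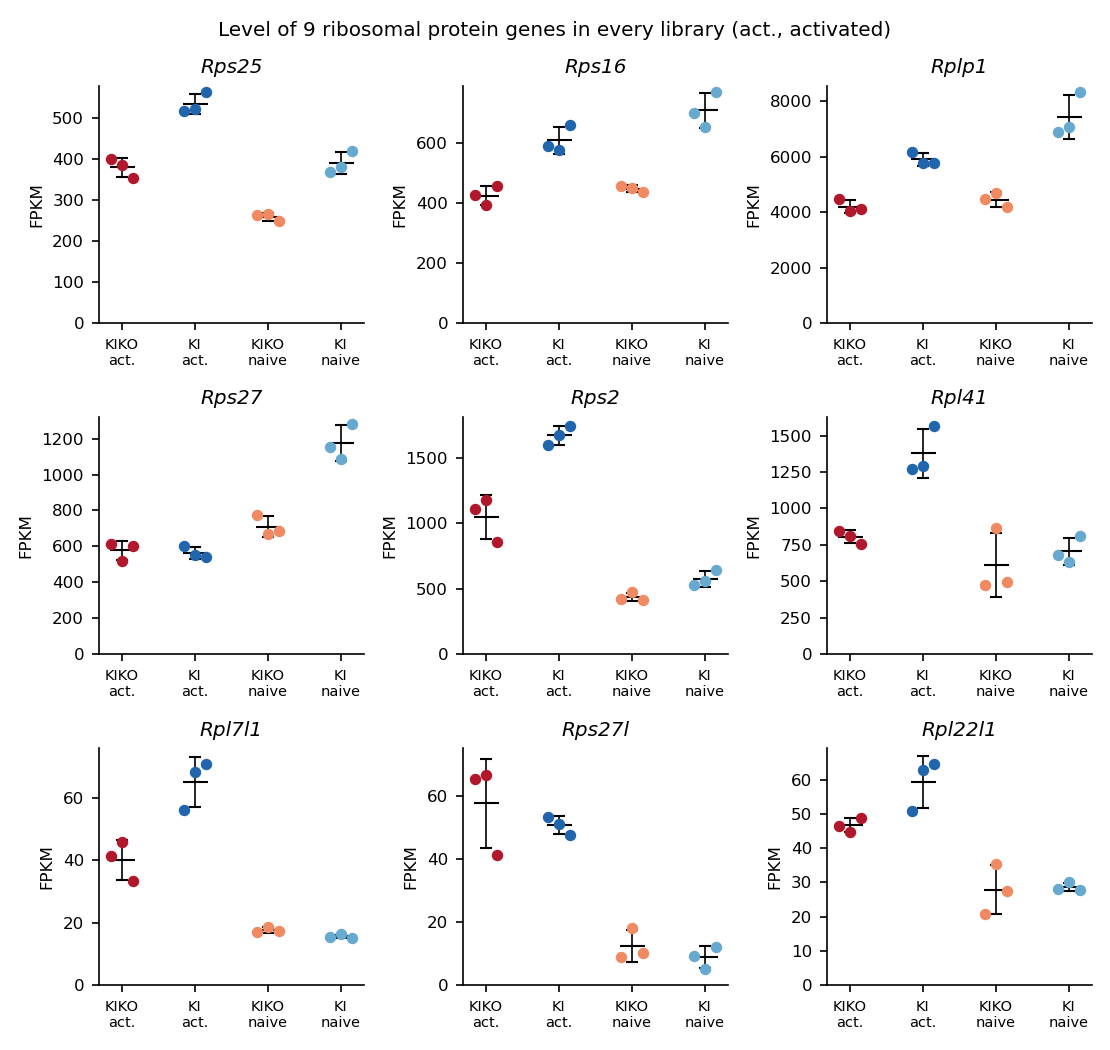
FPKM of 9 ribosomal protein genes in every library; points are libraries, horizontal marks the mean of 3 and error bars the SD, and each panel starts at 0. Rps25 and Rps16 are lower in KIKO in both states, Rps27 is lower in KIKO in naive cells and overlaps KI after activation, and the paralogs Rpl7l1, Rps27l and Rpl22l1 are higher in activated cells.

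Events within the members' transcripts are a measure that the naming rule did not use. The files allow inclusion to be computed at 15 exons of 12 members and retention at 16 introns of 12 members that sum to at least 20 FPKM in every library. Rps19, a 40S protein whose loss causes Diamond-Blackfan anaemia in humans, has an 81-bp exon (chr7:24585532-24585612, plus strand, GRCm39) that the annotation gives only in a transcript marked for nonsense-mediated decay, the pathway that degrades mRNAs with an early stop. The first bases of that exon are shown because they contain the stop, at chr7:24886107-24886153 of GRCm38, plus strand, with the stop codon in capitals after 44 bases.
Rps19 exon: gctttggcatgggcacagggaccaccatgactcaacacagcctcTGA

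The exon was included in 5.37%, 5.22% and 7.23% of Rps19 in KIKO naive libraries, against 1.38%, 1.91% and 1.25% in KI naive libraries. In activated cells it was included in 0.903%, 1.37% and 1.46% in KIKO, against 0.352%, 0.829% and 0.377% in KI libraries. Every KIKO library lay above every KI library of its state, and every naive KIKO library above all others. The means were 5.94% ± 1.12 in KIKO naive and 1.51% ± 0.348 in KI naive cells (SD, n = 3 each, two-sided exact permutation p = 0.1), and 1.24% ± 0.299 in KIKO activated and 0.519% ± 0.269 in KI activated cells (exact permutation p = 0.1). The smallest p that 3 against 3 libraries allow is 0.1. It was the only 1 of the 15 exons without overlap between genotypes in either state, where 3.58% of 1564 exons of all loci were higher and 5.31% lower in KIKO without overlap in naive cells, and 6.39% higher and 6.07% lower in activated cells, and it was singled out after its values were seen. The FPKM of the exon form was 39.2, 38.6 and 52.5 in KIKO naive, against 12.8, 17.8 and 12.9 in KI naive libraries. The whole Rps19 locus stood at 733, 742 and 728 FPKM in KIKO naive, against 934, 935 and 1038 FPKM in KI naive libraries (-0.40 ± 0.10, limma adjusted p = 0.023). That call was lost under quantile normalization (-0.16), without KIKO naive 1 (-0.40) or 3 (-0.39) and without any KI naive library (-0.42 to -0.35).

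**Figure D5:**
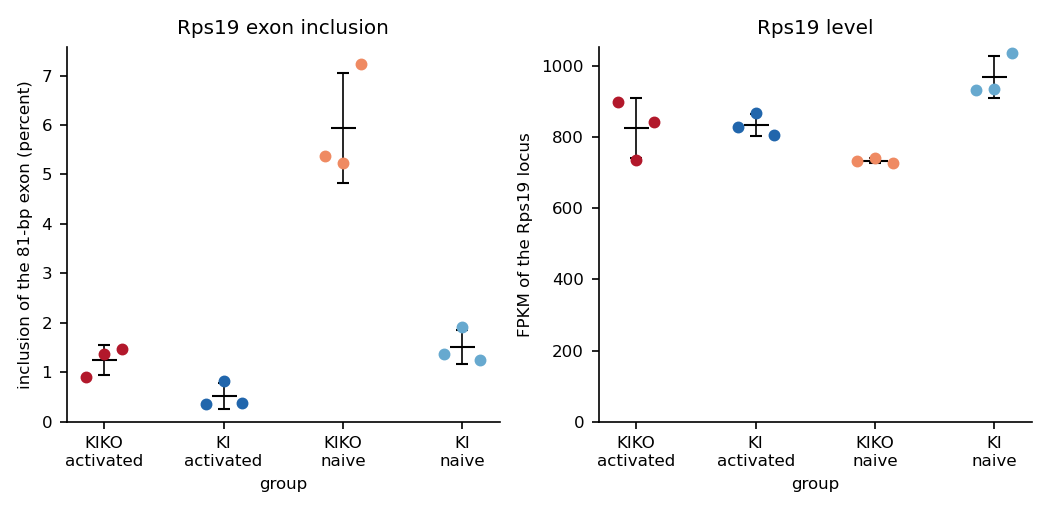
Left, percent of Rps19 that includes the 81-bp exon; right, FPKM of the Rps19 locus; points are libraries, horizontal marks the mean of 3 and error bars the SD. The KIKO naive libraries lie between 5.22% and 7.23%, above all others, and between 728 and 742 FPKM, below the KI naive libraries.

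Of the 16 introns, 1 was higher (Rpl7) and 1 lower (Rpl18) in KIKO naive cells without overlap, and 3 were higher (Rpl34, Rpl41 and Rpl7) and 1 lower (Rpl3) in KIKO activated cells. Singled out after its values were seen, a 338-bp intron of the 60S gene Rpl7 was the one with a higher retained share in KIKO without overlap in both states. It was retained in 0.655%, 0.381% and 0.529% in KIKO naive, against 0.0856%, 0.193% and 0.351% in KI naive libraries. In activated cells the shares were 1.02%, 0.893% and 0.831% in KIKO, against 0.361%, 0.523% and 0.330% in KI libraries. Of 409 introns of all loci, 11% were higher and 3.42% lower without overlap in KIKO naive cells, and 21.3% higher and 3.42% lower in KIKO activated cells. Rpl3, a 60S protein at the peptidyl transferase centre, retained a 583-bp intron in 8.47% to 15.1% of its transcripts in all 12 libraries. The listed share of a 417-bp Rps27a intron switched between replicates, from 2.97% to 100% in KIKO naive and from 6.56% to 100% in KI naive libraries.

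Genes of the surrounding pathways were counted from lists. Over all loci tested, 6.46% were called higher and 3.9% lower in KIKO naive cells, and 20.7% higher and 19.3% lower in KIKO activated cells. The counts of the lists were not tested against those shares. Of 25 genes whose mRNAs carry a terminal oligopyrimidine tract or that assist translation, 20 were tested, with 4 higher and 1 lower in KIKO naive cells and 1 higher and 7 lower in KIKO activated cells. The list includes Fau and Rps3a1. Nucleolin (Ncl), which acts in rRNA synthesis and processing, averaged 328 ± 42.1 FPKM in KIKO activated and 642 ± 113 FPKM in KI activated cells (SD, n = 3 each; log2 difference -0.96 ± 0.14, limma adjusted p = 0.00021). Of 19 genes of mTOR signalling and oligopyrimidine tract binding 17 were tested, with 4 higher and 0 lower in KIKO naive and 7 higher and 3 lower in KIKO activated cells. Among those higher in KIKO activated cells were Rptor (1.01 ± 0.14, limma adjusted p = 0.00014), Tsc1 (0.66 ± 0.13, limma adjusted p = 0.0019) and Rheb (0.36 ± 0.11, limma adjusted p = 0.017). The 3 called lower are not named here, so the genes named show only 1 direction of this list. Sesn2, a stress-induced inhibitor of mTORC1, averaged 38.0 ± 13.2 FPKM in KIKO activated and 3.79 ± 1.02 FPKM in KI activated cells (2.99 ± 0.29, limma adjusted p = 1.3e-05). Eif4ebp1, a translation repressor that mTORC1 inactivates, averaged 48.0 ± 18.8 FPKM in KIKO activated and 7.08 ± 1.09 FPKM in KI activated cells (2.53 ± 0.24, limma adjusted p = 1.1e-05). No member differed as much in that comparison, where the differences ran from -1.43 (Rpl29, not called) to 0.29 (Rpl21, not called).

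Of 19 genes that handle unassembled ribosomal proteins or belong to the Mdm2 and p53 axis 14 were tested, with 2 higher and 0 lower in KIKO naive and 2 higher and 7 lower in KIKO activated cells. Both genes higher in naive cells were Tsr2, a chaperone of Rps26 (7.84 ± 1.40 FPKM in KIKO naive and 3.73 ± 0.156 FPKM in KI naive cells, limma adjusted p = 0.0024), and Ube2o, a ubiquitin ligase for unassembled ribosomal proteins (16.2 ± 0.879 FPKM in KIKO naive and 9.10 ± 1.12 FPKM in KI naive cells, limma adjusted p = 0.0055). Both that were higher in activated cells were Mdm2, the ubiquitin ligase of p53 (1.71 ± 0.17, limma adjusted p = 1.6e-05), and again Ube2o (29.0 ± 5.83 FPKM in KIKO activated and 11.5 ± 0.866 FPKM in KI activated cells, limma adjusted p = 3.0e-05). Heatr3, whose human counterpart helps import Rpl5 into the nucleus, averaged 8.01 ± 0.773 FPKM in KIKO activated and 24.5 ± 4.28 FPKM in KI activated cells (-1.49 ± 0.14, limma adjusted p = 8.1e-06). Of 20 genes that respond to stalled ribosomes 16 were tested, with 1 higher and 1 lower in KIKO naive and 2 higher and 3 lower in KIKO activated cells. The shares of all loci beside these lists were 6.46% higher and 3.9% lower in naive, and 20.7% higher and 19.3% lower in activated cells. Edf1, whose human counterpart binds collided ribosomes, was lower in both states (-0.38 ± 0.09, limma adjusted p = 0.023 in naive, and -0.74 ± 0.09, limma adjusted p = 6.2e-05 in activated cells).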

How the data were processed

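RNA of 12 libraries was analysed from the FPKM values that the authors deposited, 1 value for each transcript event (start, end, exon or intron form) of a locus. The submitters' processing notes name FastQC 0.11.9, cutadapt 2.9 and HISAT2 2.2.0, and both GRCm39 and mm10; the coordinates in the files are those of GRCm39, and no source used here states the program that gave the FPKM. FPKM carry no read number, so depth and counting error are unknown. The level of a locus was the largest of its summed starts, its summed ends and its largest single event, with unlisted events at 0. Names were checked against exon lengths and distances of GENCODE M21.

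The 9743 loci with at least 1 FPKM in at least 3 libraries were compared as log2(FPKM + 1) with limma 3.58.1 (R 4.3.3, 4 group means, intensity trend, two-sided, Benjamini-Hochberg adjustment over all loci of a comparison, threshold 0.05). The fit was tested on simulated data. Fold changes on this scale understate those of low genes. Exon inclusion was compared by exact permutation (SciPy 1.17.1, Python 3.11.15). Replicate libraries correlated at 0.952 to 0.983 (Pearson, across loci, which are not independent).

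Some genes are not reported here by name. The members and the gene lists were chosen with earlier results of these data known. Values per library are given for the 5 members with the largest called change each way, members called against the majority, and paralogs. In the pathway lists the 3 genes with the smallest p may be named, and Rptor, Tsc1 and Rheb are given beside them. Alternatives were other pseudocounts, filters, scalings and level definitions, a replicate block, the 2 groups alone, and each library left out. Leaving out KIKO naive 2 with KI naive 3, or KIKO naive 2 with KIKO activated 2, was chosen after seeing the data.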

Additional observations from a re-analysis of the deposited data

Results flagged for a closer look

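The genotypes differed in their response to activation at 2 members, by limma's test of the difference of responses. Rpl7l1 had a difference of -0.85 (limma adjusted p = 0.0057), being higher after activation in all 3 KIKO and all 3 KI libraries. Rps27 had a difference of 0.76 (limma adjusted p = 0.0051), and it was lower after activation in both genotypes. The causes were not tested.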

How the results depend on the processing

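Across 82 called differences of members and 2294 alternatives, 1982 kept direction and call, 308 kept direction and lost the call, and 4 reversed: Rplp0 in naive cells (0.0010) and Rpl31 in activated cells (0.0286) under quantile normalization, and Rpl11 in KIKO activation (-0.3272) and Rps15a in KI activation (0.2749) with starts summed. Quantile normalization gave 2 members higher and 6 lower in naive cells (median -0.0434), 1 higher and 8 lower in activated cells (median -0.0060), 8 lower in KIKO activation (median -0.0244), 17 lower in KI activation (median -0.0058), and 5 higher and 2 lower in the difference of responses. Rescaling to an equal sum gave 1 higher in naive cells, a median of -0.1385 in activated cells, 7 lower in KIKO activation (median -0.0267), 19 lower in KI activation (median -0.0013), and 2 higher and 2 lower in the difference of responses. With the sum of other loci made equal these were 7 lower (median -0.0420), 13 higher and 19 lower (median -0.0258), and 3 higher and 2 lower. The share of all calls that were higher in KIKO was 62.3% in naive cells as deposited, 44.2% with median-ratio scaling and 81.0% at an equal sum, and in activated cells 51.8%, 45.3% and 64.9%.

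Without the filter, 7 members were lower in naive cells, 11 in activated cells, 0 in KIKO and 4 in KI activation. A group mean of 5 FPKM gave 2 lower in KIKO activation and 2 higher and 3 lower in the difference of responses. A pseudocount of 5 and the largest single event each gave 2 lower in KIKO activation, and summed starts gave 0, with 0 higher in the difference of responses. Fits to 2 groups alone gave 3 lower in naive cells and 0 in KIKO activation. Leaving out KIKO naive 2 and KI naive 3 gave 38 lower in activated cells, and 2 higher and 5 lower in the difference of responses. Leaving out KIKO naive 2 and KIKO activated 2 gave 0 lower in KIKO activation, and 4 higher and 2 lower in the difference of responses (median 0.0566). Their causes were not tested.

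With 1 library left out, 0 were higher and 7 to 17 lower in naive cells (median -0.3196 to -0.1791), and 0 higher and 12 to 30 lower in activated cells (-0.2961 to -0.2224). In KIKO activation 10 to 15 were higher and 0 to 2 lower (0.0280 to 0.1266), in KI activation 13 to 23 higher and 3 to 9 lower (0.0273 to 0.1910), and in the difference of responses 1 to 3 higher and 1 to 4 lower (-0.1666 to 0.0252). KI activation had 13 higher without KI naive 1 or 2, and 3 lower without KI activated 2 or KI naive 3. KIKO activation had 0 lower without KI activated 2 or KIKO naive 1 and 2 without KI naive 3. The difference of responses had 2 higher without KIKO activated 2 or KIKO naive 1, 3 higher without KIKO naive 2, 2 lower without KIKO activated 2, KIKO naive 2, KIKO naive 3 or KI naive 1, and 4 lower without KI naive 3.

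Over all loci tested, deviations of same-numbered samples correlated at -0.036 to 0.121, over 0.1 in 2 of 18 pairs, so pairing by number was not shown. Yet S100a8 was highest in both KIKO libraries numbered 2 and Hba-a1 in both numbered 1, and whether same-numbered KIKO libraries share a source was not tested. With a replicate block 11 members were lower in naive cells, 22 in activated cells, 13 higher and 1 lower in KIKO activation, 21 higher and 7 lower in KI activation, and 1 higher and 1 lower in the difference of responses. Depth is unknown, so no value has a counting limit.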
